A study of Mus musculus with 31 samples.

Results

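Described here are 10 of the 22609 genes counted in mouse masseter muscle (MM), the jaw-closing muscle, after injection of an irritant or a matrix-degrading enzyme. They were taken by name as growth factors of muscle with their inhibitor and binding proteins. The ligands are Mstn, Inhba, Gdf15, Igf1, Igf2, Hgf and Fgf7, the inhibitor is Fst, and the binding proteins are Igfbp3 and Igfbp5. All 10 were listed in each of the 31 libraries.

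Each library was poly(A) RNA of the left MM (deep, middle and superficial parts) of 1 adult male C57BL/6J mouse, 2 to 4 months old, after 1 intramuscular injection. Complete Freund's adjuvant (CFA, an oil with killed mycobacteria that provokes inflammation) gave the groups CFA 1d (3 mice) and CFA 5d (3 mice), with the 3 mice of CFA vehicle as reference. Collagenase type 2 (Col, an enzyme preparation that digests collagen) was given at 0.2U to the groups 1C (4 mice) and RPC (4 mice) and at 10U to the groups 2d (4 mice), 6d (3 mice) and 12d (4 mice), with the 3 mice of Col vehicle as reference. The vehicle was phosphate-buffered saline, so every mouse had the needle and a fluid volume in the muscle. The labels do not say on which day 1C, RPC and the vehicle mice were collected. The labels read 2d and 12d for groups that the methods text places at 1d and 14d, and the label names are kept here.

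Myostatin, the product of Mstn, is a secreted member of the transforming growth factor beta family made by muscle fibers that limits muscle mass, and activin A, a dimer of the Inhba product, signals through the same type II receptors. Follistatin, the product of Fst, binds and blocks both. The insulin-like growth factors Igf1 and Igf2 act through Igf1r to drive proliferation, differentiation and growth of myogenic cells, and their binding proteins hold them in the extracellular space and change their access to the receptor. Hgf, the ligand of Met, is known to rouse quiescent satellite cells, the stem cells of muscle. Fgf7 is a mesenchymal factor that acts on epithelia through a splice form of Fgfr2, and Gdf15 is a ligand induced by cellular stress.

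Between 14843778 and 29076671 reads per mouse were assigned to genes (median 20834472). The 5 myofiber markers (Acta1, Ckm, Myh4, Tnnt3 and Tnni2) were found in all libraries, with summed levels from 21541 to 155935 CPM (counts per 1e6 reads, scaled by the TMM method), as the label MM requires. A pair of features of the series touches the results that follow. In the 11 libraries of 10U Col, 0.675 to 0.875% of reads on genes were set aside as ambiguous, against 0.147 to 0.317% in the other 20, and whatever set this share apart and the treatment cannot be told apart in the comparisons of 10U with vehicle. Comparisons of 10U 6d with 2d and of 12d with 6d lie within the 11. Single mice also stood apart from their group. Mouse 4 of 10U 12d had a summed level of 5 fibroblast markers of 13229 CPM where the other 3 mice of the group had 2649 to 4434 CPM, and mouse 4 of 10U 2d had 32.7 CPM of Igfbp3 where the other 3 had 287 to 337 CPM. Where a call of the 10 genes changed without either mouse, both values are given. The 3 Col vehicle mice were uneven too. Their fibroblast markers summed to 5812, 1192 and 4422.5 CPM and their 4 Schwann cell markers to 255, 955 and 290 CPM. In bulk tissue, fewer cells of a type and less RNA per cell cannot be told apart.

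**Figure D1:**
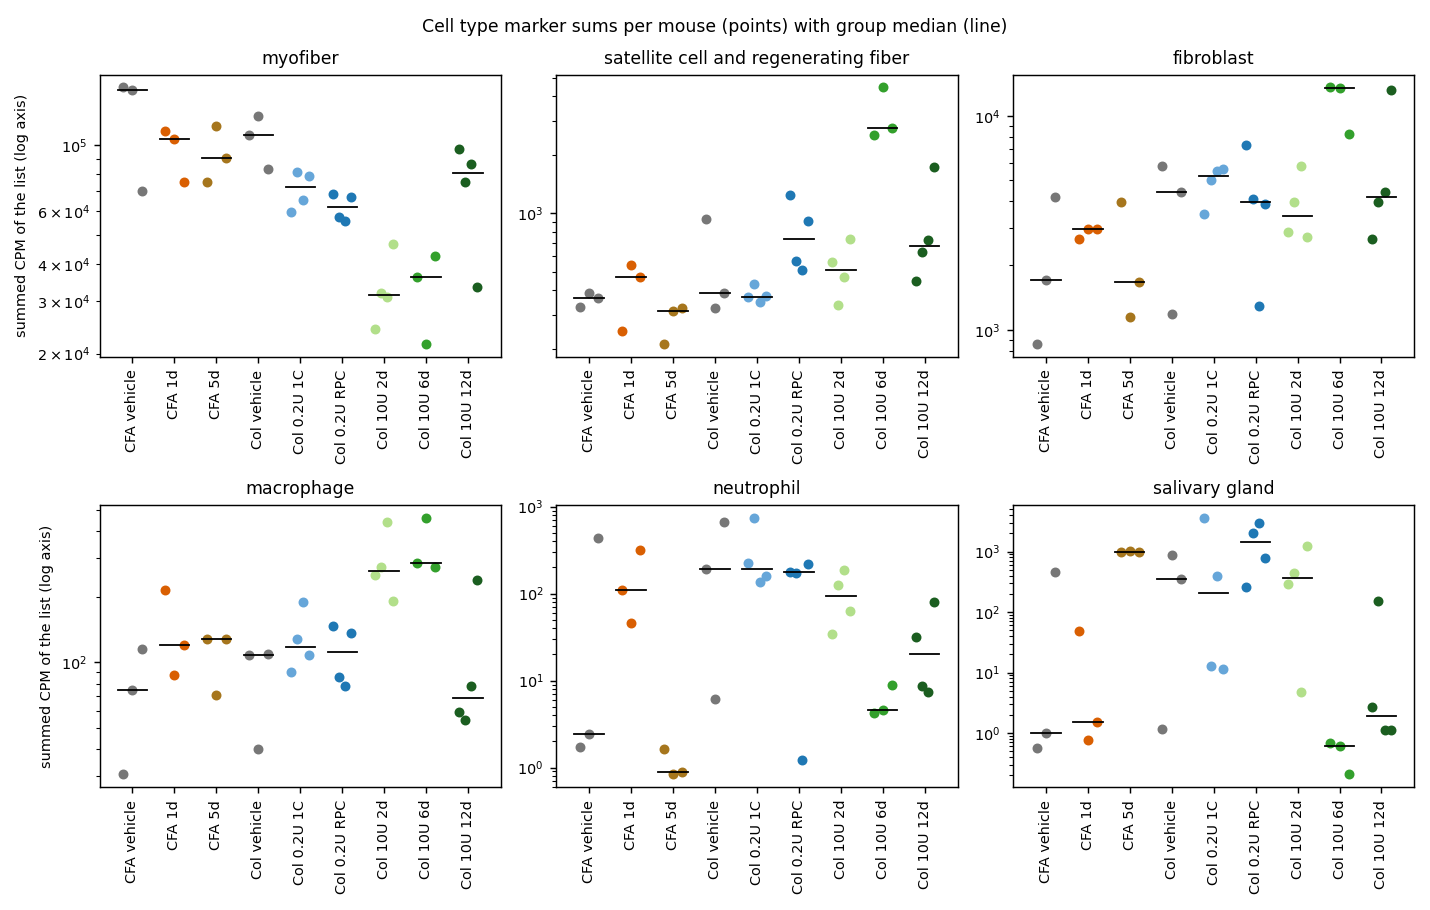
Summed TMM-scaled CPM of 6 marker lists (log axes) in each mouse (points) of the 9 groups, with group medians as lines. Myofiber markers were lowest at 10U 2d and 6d, fibroblast and regenerating fiber markers were highest at 10U 6d and in mouse 4 of 12d, and salivary gland markers ranged from 0.207 to 3639 CPM.

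In build mm9, Mstn lies on chromosome 1 from 53118507 to 53124923, Igfbp5 on chromosome 1 from 72904506 to 72921458, Igf2 on chromosome 7 from 149836673 to 149852721 and Igf1 on chromosome 10 from 87321010 to 87399792. Gdf15 lies on chromosome 8 from 73153292 to 73156355 and Igfbp3 on chromosome 11 from 7106089 to 7113926. Inhba and Fst are both on chromosome 13, from 16103684 to 16119044 and from 115242470 to 115249159. Hgf lies on chromosome 5 from 16059368 to 16125257 and Fgf7 on chromosome 2 from 125860394 to 125916921. Counts cover all exons of a gene. Of the exonic bases of Igf2, 1.78% (98 bp) lie under exons of the opposite-strand gene Igf2as, and no exon of the other 9 genes overlaps an exon of another gene.

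RefSeq promoter windows (GRCm38.p6, 250 bases before to 50 after a start) were matched for 9 of the 10 genes, 14 windows in all. They were searched on both strands for TATAAA, the core of the TATA box, for TGANTCA and for TGATGNAA, part of a stress-response element. TGANTCA is a loosened form of the AP-1 site, whose consensus has C or G at N. The searches overlap in no base of these windows. TATAAA was found in the windows of Mstn and Inhba and in 13.6% of all 32851 windows, TGANTCA in those of Mstn and Igf1 and in 7.81% of all, and TGATGNAA in none of the 14 and in 3.97% of all. The window of Mstn is shown because this gene was the only 1 of the 10 called lower at 10U 6d, those of Inhba and Igf1 because they hold the only other matches, and that of the upstream start of Gdf15 because this gene had the widest change and no match. Capitals mark TATAAA and TGANTCA on either strand, written 5′ to 3′ along the gene.
Mstn (chr1:53061390-53061689, strand +): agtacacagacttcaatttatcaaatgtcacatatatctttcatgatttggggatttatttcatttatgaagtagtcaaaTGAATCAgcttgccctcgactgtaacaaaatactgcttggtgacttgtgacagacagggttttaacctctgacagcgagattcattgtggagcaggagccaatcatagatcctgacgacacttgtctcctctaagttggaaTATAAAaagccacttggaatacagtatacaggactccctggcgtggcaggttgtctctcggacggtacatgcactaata
Inhba (chr13:16011601-16011900, strand +): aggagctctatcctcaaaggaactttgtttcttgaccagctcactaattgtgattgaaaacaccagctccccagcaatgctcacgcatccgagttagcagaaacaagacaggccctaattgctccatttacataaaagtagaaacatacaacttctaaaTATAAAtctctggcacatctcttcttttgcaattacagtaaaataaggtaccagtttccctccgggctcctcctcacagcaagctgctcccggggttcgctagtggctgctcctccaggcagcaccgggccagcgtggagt
Igf1 (chr10:87860861-87861160, strand +): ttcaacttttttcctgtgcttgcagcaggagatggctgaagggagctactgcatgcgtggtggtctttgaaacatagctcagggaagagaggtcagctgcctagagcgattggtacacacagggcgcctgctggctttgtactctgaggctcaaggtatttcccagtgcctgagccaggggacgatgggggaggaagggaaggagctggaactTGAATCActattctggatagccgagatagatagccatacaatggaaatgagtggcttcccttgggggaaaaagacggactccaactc
Gdf15 (chr8:70632407-70632706, strand -): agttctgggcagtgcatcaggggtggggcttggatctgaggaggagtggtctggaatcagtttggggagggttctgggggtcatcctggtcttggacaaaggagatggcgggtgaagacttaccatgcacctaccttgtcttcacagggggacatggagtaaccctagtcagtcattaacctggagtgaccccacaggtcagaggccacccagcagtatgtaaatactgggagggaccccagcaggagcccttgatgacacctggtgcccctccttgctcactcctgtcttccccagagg
Within the Mstn window TATAAA begins 29 bases before the start and the TGANTCA match 170 bases before it. In the Inhba window TATAAA begins 91 bases before the start, and the TGANTCA match of Igf1 begins 37 bases before the start of that gene. Both TGANTCA matches read TGAATCA, which is not the AP-1 consensus.

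Levels of different genes were compared as RPKM, reads scaled to exon length and depth, over the 6 vehicle mice of both experiments. Igfbp5 was the most abundant, with a median of 148 RPKM (98.9 to 165). Mstn followed with 32.99 RPKM (19.3 to 74.2), so that in vehicle-injected MM the message of the growth inhibitor stood above those of both growth-promoting IGF ligands. Igfbp3 had 12.8 RPKM (10.8 to 19.8), Igf2 10.4 (6.79 to 12.9) and Igf1 3.92 (2.37 to 6.69). Fst had 3.42 RPKM (2.39 to 5.84) and Fgf7 2.20 (1.23 to 4.51). The remaining 3 genes were close to the limit of counting, with 0.201 RPKM for Inhba, 0.0901 for Gdf15 and 0.0378 for Hgf. The ranges of Igfbp5 and Mstn did not overlap and neither did those of Igf2 and Igf1, while every other pair of neighbours in this order overlapped. Hgf had 30 counts in CFA vehicle mouse 3 and 25 in Col vehicle mouse 3 and at most 3 in the other 4 vehicle mice. Between the 2 vehicle groups 0 of 8 tested genes were called by edgeR, where 0.0426% of all 14070 genes were called. Of the 8, 1 (Mstn, log2 fold change -0.84, SE 0.35) had an unadjusted p under 0.05, against 2.32% of all genes, and DESeq2 called 0, against 0.463%.

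**Figure D2:**
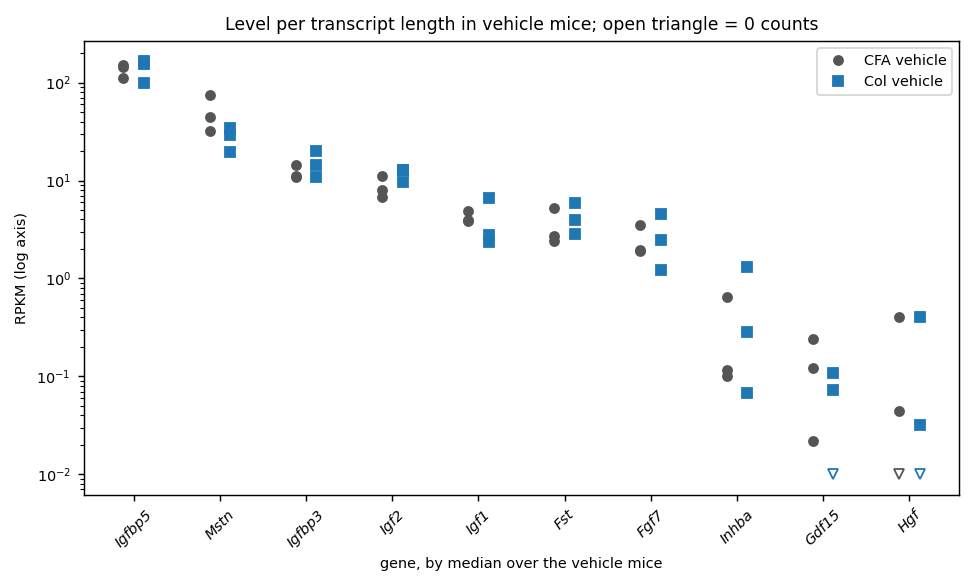
RPKM (log axis) of each gene in the 3 CFA vehicle mice (circles) and the 3 Col vehicle mice (squares), genes ordered by their median, open triangles for libraries with 0 counts. Igfbp5 and Mstn lie highest, and Inhba, Gdf15 and Hgf stay at or below 1.31 RPKM in every vehicle mouse.

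Gene by gene, every comparison asked whether injection changed the message against the vehicle group of its own experiment, with edgeR's quasi-likelihood test, an adjusted p under 0.05 over all tested genes being a call. The widest change came at 6d after 10U Col, where the messages of Gdf15, Igf2, Hgf, Igf1, Igfbp5 and Igfbp3 rose and that of Mstn fell. That is 7 of 10 genes called, 6 higher and 1 lower, where 27.3% of all 14281 tested genes were called, 14% higher and 13.3% lower. The same 7 genes had groups that did not overlap, against 26% of all genes in the higher and 21.2% in the lower direction. Gdf15 is in both counts, but only the mice of 6d took it past the low-count filter (10 counts in 3 or more libraries). It could therefore be called only higher. Leaving it aside, the calls were Igf2, Hgf, Igf1, Igfbp5 and Igfbp3 higher and Mstn lower. The median log2 fold change of the 10 was 1.35, also with Gdf15 at its lower bound, against 0.01 for all genes. Fst, Fgf7 and Inhba were not called, with log2 fold changes of 0.06 (SE 0.34), 0.69 (SE 0.48) and 1.18 (SE 0.82).

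At 10U 2d, 2 of 10 genes were called, Gdf15 higher and Igf2 lower, where 2.22% of 14373 genes were called, 1.14% higher and 1.08% lower. Without mouse 4 of that group 5 were called, Igfbp3 and Igfbp5 being added on the higher and Mstn on the lower side, where 36.3% of all genes were called as well. DESeq2 called 5 genes on all 4 mice, the same as those 5, where it called 23.2% of all genes. Without any 1 of the other 6 mice of the comparison 0 were called, against 0.0843 to 4.27% of all genes. At 10U 12d, 0 of 9 tested genes were called by edgeR, where 1.23% of 14176 genes were called. Of the 9, 2 had an unadjusted p under 0.05, Gdf15 and Igf1, against 17.4% of all genes, and DESeq2 called 1, Gdf15, against 6.39%. At 2d and 12d too, Gdf15 was tested only because treated mice passed the low-count filter, so it could be called only higher.

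After CFA, 0 of 9 tested genes were called at 1d, where 0% of 13944 genes were called, and 0 of 8 at 5d, where 1.11% of 14026 genes were called. The counts at an unadjusted p under 0.05 were 1 (Igfbp5) at 1d, against 4.22% of all genes, and 2 (Mstn and Igfbp5) at 5d, against 14%. DESeq2 called 0 at 1d, where it called 0.437% of all genes, and 1, Mstn, at 5d, where it called 6.44%. CFA vehicle mouse 3 stood apart, with a myofiber marker sum of 69914.5 CPM against 152492.4 and 155934.8 in the other vehicle mice. Without it edgeR called 1 of 7 tested genes at 5d, Mstn, where 15.6% of all genes were called. That was the only one of the 6 fits without 1 mouse at 5d to call any of the genes. In the low-dose groups 0 of 10 were called in 1C and 0 of 10 in RPC, where 0% of 14493 and 0% of 14269 genes were called. At an unadjusted p under 0.05 there were 1 gene in 1C (Gdf15), against 12.6% of all, and 3 in RPC (Mstn, Gdf15 and Fst), against 13.5%. In both groups Gdf15 was tested only because treated mice passed the low-count filter. DESeq2 called 0 in both, where it called 3.6% and 3.77% of all genes.

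**Figure D3:**
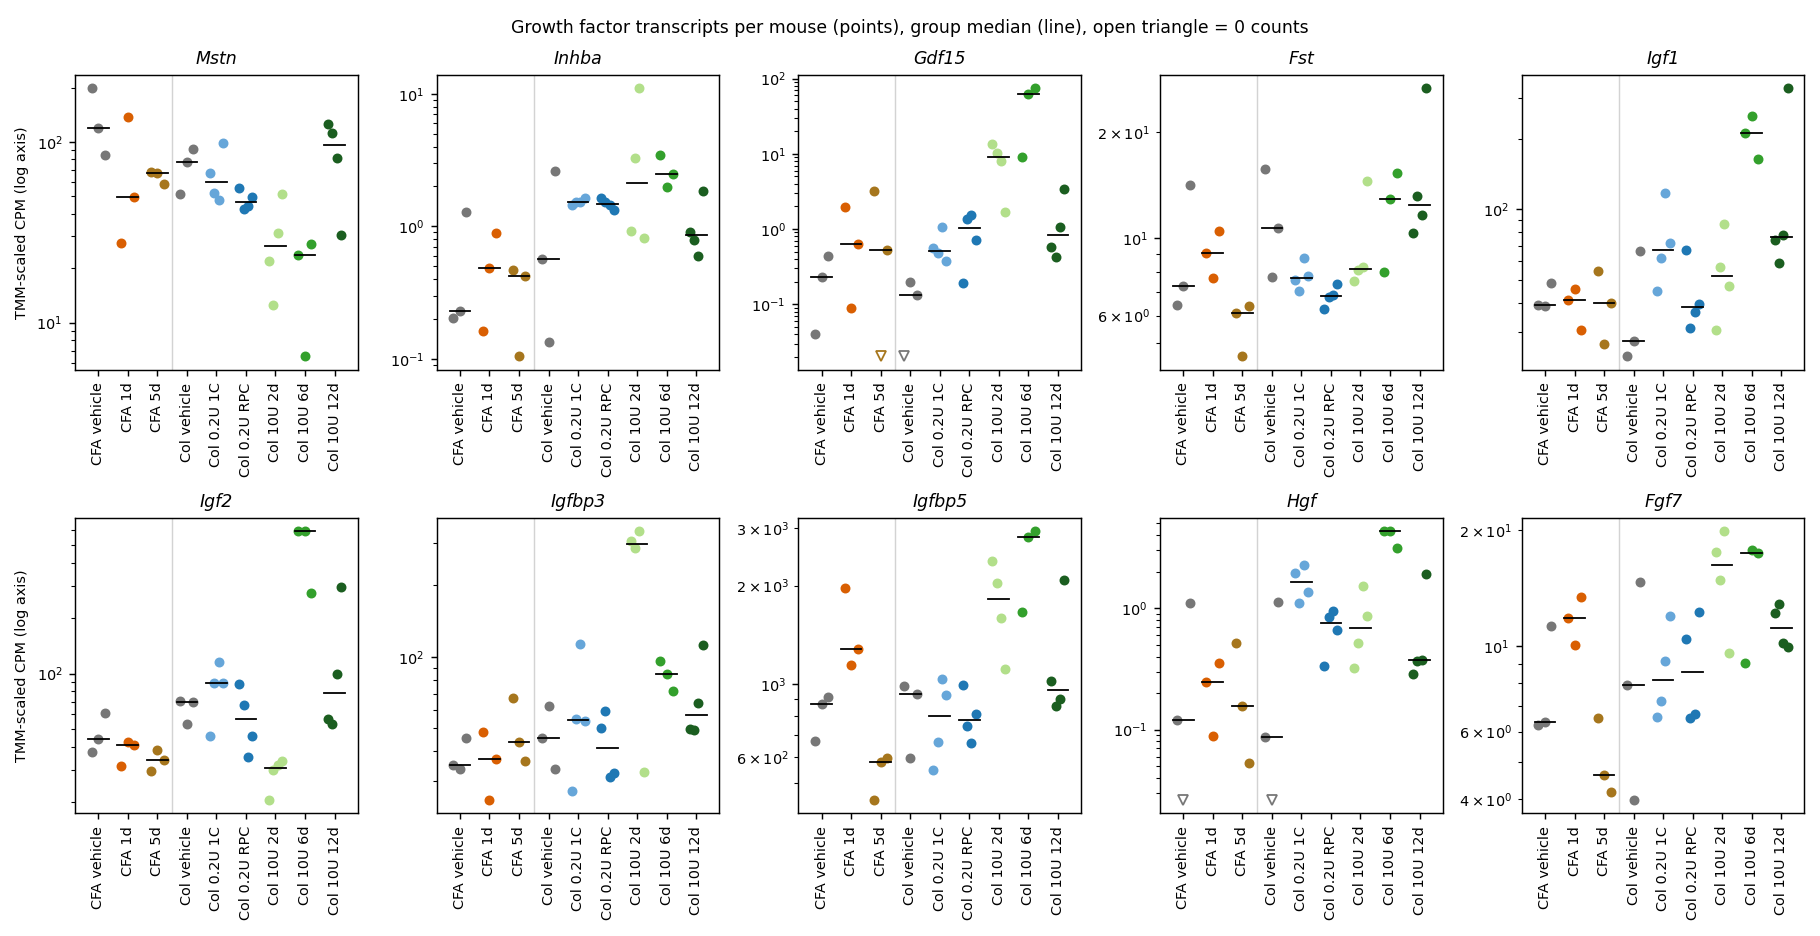
TMM-scaled CPM (log axes) of the 10 genes in each of the 31 mice (points), with group medians as lines and open triangles for libraries with 0 counts. The 3 mice of 10U 6d lie above all Col vehicle mice for 6 genes and below them for Mstn, and the highest mouse of 10U 12d is mouse 4 for Igf1, Igf2, Igfbp3, Igfbp5, Hgf, Gdf15, Fst and Inhba.

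Mstn fell by 6d after 10U Col and was higher again at 12d. The 3 Col vehicle mice had 51.8, 77.5 and 91.8 CPM, the 4 mice of 10U 2d had 22.0, 12.5, 31.4 and 51.8 CPM, and the 3 mice of 6d had 23.8, 6.503 and 27.3 CPM. All mice of 6d lay below all vehicle mice, and so did those of 2d, with mouse 4 all but level with the lowest vehicle mouse. At 2d this held for 2 of 10 genes in the lower direction (Mstn and Igf2) against 10.8% of all genes. At 6d the log2 fold change was -1.957 (SE 0.50, edgeR adjusted p = 0.0286), a 3.88-fold lower level. At 2d it was -1.36 (SE 0.45, edgeR adjusted p = 0.0875), and without mouse 4 it was -1.79 (edgeR adjusted p = 0.0103). The 4 mice of 12d had 126, 112, 81.7 and 30.6 CPM, of which mice 1 and 2 lay above the vehicle range and mouse 4 below it (log2 fold change 0.27, SE 0.44, edgeR adjusted p = 0.789). Between 6d and 12d Mstn rose by 2.21 on the log2 scale (SE 0.62, edgeR adjusted p = 0.0375), with no overlap of the groups. Of the 7 fits without 1 mouse that last call held in 1, the fit without mouse 4 of 12d.

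Both days of CFA had low Mstn values as well, but no call. The CFA vehicle mice had 199, 120 and 85.2 CPM, those of CFA 1d 27.5, 138 and 49.9 CPM and those of CFA 5d 67.8, 67.0 and 58.9 CPM. At 5d these groups did not overlap, which held for 3 of the 8 tested genes in the lower direction (Mstn, Fst and Igfbp5) and for 6.89% of all genes. At 5d the log2 fold change was -1.01 (SE 0.29) with an adjusted p of 0.159 in edgeR and 0.00969 in DESeq2, and without CFA vehicle mouse 3 edgeR's adjusted p was 0.00485. At 1d it was -0.89 (SE 0.59, edgeR adjusted p = 0.924), mouse 2 lying within the vehicle range. The low-dose groups had 48.0 to 98.4 CPM (1C, median 59.7) and 42.7 to 55.9 CPM (RPC, median 46.8). Over the 9 groups the mean of Mstn ran from 135 ± 58.4 CPM in CFA vehicle (SD, n = 3) through 87.5 ± 42.1 at 10U 12d (n = 4) and 73.7 ± 20.2 in Col vehicle (n = 3) down to 29.4 ± 16.8 at 10U 2d (n = 4) and 19.2 ± 11.1 at 10U 6d (n = 3). RPC (48.1 ± 6.02, n = 4) differed from both of its neighbours in that order, CFA 5d (64.6 ± 4.94, n = 3) and 10U 2d, by more than either SD, and the other neighbours differed by less than the larger SD. The summed level of the 5 myofiber markers moved in the same direction as Mstn, with 83281 to 124693 CPM in Col vehicle, 24269 to 46763 at 10U 2d, 21541 to 42505 at 6d and 33349 to 96962 at 12d, the lowest of which was mouse 4. At 6d 3 of the 5 markers were called lower, against 13.3% of all genes. The part of the myofiber level in the change of Mstn was not tested.

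Fst, which binds myostatin and activin, was not called in any comparison. The 3 Col vehicle mice had 15.7, 7.72 and 10.7 CPM and the 3 mice of 10U 6d had 7.99, 12.9 and 15.3 CPM. The ranges overlap almost wholly, and the SE of 0.34 on the log2 fold change of 0.06 leaves changes of that order undetectable with 3 mice a group. The highest value of all 31 mice was 26.8 CPM, in mouse 4 of 10U 12d, where the other 3 mice had 10.3 to 13.2 CPM. In CFA 5d Fst had 6.09, 4.59 and 6.40 CPM, just below the 6.42, 7.30 and 14.1 CPM of CFA vehicle (log2 fold change -0.67, SE 0.36, edgeR adjusted p = 0.482). In RPC the 4 mice, with 6.27 to 7.40 CPM, also lay below all Col vehicle mice, which held for 1 of 10 genes in the lower direction against 7.21% of all genes.

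Inhba, which encodes the subunit of activin A, was a rare message that was higher in some mice of 10U. Col vehicle mice had 0.567, 0.133 and 2.60 CPM, those of 10U 2d 0.917, 3.31, 11.1 and 0.824 CPM and those of 6d 3.44, 1.99 and 2.49 CPM. Vehicle mouse 3 overlapped both groups, and neither was called (log2 fold change 1.79, SE 1.18, edgeR adjusted p = 0.313 at 2d, and 1.18, SE 0.82, edgeR adjusted p = 0.302 at 6d). Without that vehicle mouse the 6d value was 2.77 (edgeR adjusted p = 0.0164), where 41.5% of all genes were called. This was the only 1 of the 6 fits without 1 mouse to call Inhba at 6d. By 12d, with 0.914, 0.795, 0.593 and 1.86 CPM, Inhba had fallen by 1.31 from 6d (SE 0.41, edgeR adjusted p = 0.0494), a call that was lost without any 1 of the 6 mice other than mouse 4 of 12d.

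Gdf15, the stress-induced ligand, went from a near absence to a moderate level. Col vehicle libraries held 0, 3 and 3 counts, that is at most 0.200 CPM, so the low-count filter was passed there only through treated mice. The 4 mice of 10U 2d had 13.6, 10.4, 7.96 and 1.69 CPM, with mouse 4 lowest, and the 3 mice of 6d had 9.11, 62.0 and 75.3 CPM. Every one of these 7 mice lay above every vehicle mouse. Measured against a floor of 3 counts per library, Gdf15 was at least 54.3-fold higher at 2d (edgeR adjusted p = 0.0408) and at least 315-fold higher at 6d (edgeR adjusted p = 0.00359). The call at 6d held in the 3 fits without 1 vehicle mouse, and without 1 mouse of 6d the gene fell under the low-count filter and was not tested. By 12d the values were 0.577, 0.428, 1.08 and 3.39 CPM, still above all vehicle mice (1 of 9 genes, against 9.16% of all) and at least 8.84-fold higher, but not called by edgeR (adjusted p = 0.169) while DESeq2 gave 0.0223. From 6d to 12d Gdf15 fell by 5.10 on the log2 scale (SE 0.88, edgeR adjusted p = 0.0129), and this call held in 6 of 7 fits without 1 mouse, the exception being without mouse 2 of 6d (edgeR adjusted p = 0.0577).

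Elsewhere Gdf15 stayed low and uneven. The values were 0.0404, 0.228 and 0.442 CPM in CFA vehicle, 1.963, 0.0889 and 0.625 CPM at CFA 1d and 3.19, 0 and 0.529 CPM at CFA 5d, so that 2 of the 3 mice of each CFA group lay above the vehicle range. In 1C all 4 mice, with 0.372 to 1.06 CPM, lay above Col vehicle (1 of 10 genes, against 4.22% of all in that direction), at least 3.98-fold higher with an edgeR adjusted p of 0.315. In RPC the 4 mice had 0.191, 1.38, 1.55 and 0.707 CPM.

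Igf2, the ligand most active in fetal growth, first fell and then rose above vehicle. Col vehicle mice had 70.7, 53.4 and 70.4 CPM, those of 10U 2d 20.7, 29.98, 31.8 and 33.4 CPM and those of 6d 591, 592 and 275 CPM. None of the 3 groups overlapped. The log2 fold change was -1.21 at 2d (SE 0.22, edgeR adjusted p = 0.0483) and 2.87 at 6d (SE 0.34, edgeR adjusted p = 0.00306), a 7.33-fold higher level. Between 2d and 6d, within the 11 libraries of 10U, Igf2 rose by 4.08 (SE 0.33, edgeR adjusted p = 0.00185). The calls at 6d and between 2d and 6d held in all fits without 1 mouse, 6 and 7 in number, with log2 fold changes of 2.71 to 3.17 and 3.94 to 4.39. The 2d call held only without mouse 4 of 2d, the edgeR adjusted p being 0.0521 to 0.193 in the other 6 fits.

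By 12d mice 1 to 3 had 56.9, 53.3 and 99.6 CPM of Igf2 and mouse 4 had 294 CPM, inside the range of 6d. The log2 fold change against vehicle was 0.99 (SE 0.60, edgeR adjusted p = 0.431), and 0.12 without mouse 4 (edgeR adjusted p = 0.839). Against 6d it was -1.93 (SE 0.62, adjusted p of 0.0538 in edgeR and 0.00664 in DESeq2), and -2.79 without that mouse (edgeR adjusted p = 0.00086). The CFA groups had 31.4, 42.6 and 40.9 CPM (1d) and 29.6, 38.7 and 33.8 CPM (5d) beside 37.3, 43.9 and 60.9 CPM in CFA vehicle, overlapping in both cases. In 1C Igf2 ran from 45.7 to 115 CPM and in RPC from 35.1 to 87.4 CPM, also overlapping with Col vehicle. In the order of group means 10U 6d came first with 486 ± 183 CPM (SD, n = 3), 12d second with 126 ± 114 (n = 4) and 2d last with 29.0 ± 5.71 (n = 4). The 6 other group means, from 34.1 to 84.7 CPM, followed each other within their SDs.

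Igf1 rose at 6d and was not called at 2d. Col vehicle mice had 23.5, 27.4 and 66.4 CPM, those of 10U 2d 30.6, 56.5, 86.7 and 47.2 CPM, and those of 6d 212, 250 and 164 CPM. Of the 2d mice 3 lay within the vehicle range and mouse 3 above it, while every 6d mouse was above both groups. At 6d the log2 fold change was 2.37 (SE 0.42, edgeR adjusted p = 0.0103), a 5.18-fold higher level, and the call held in all 6 fits without 1 mouse (2.10 to 3.01). From 2d to 6d Igf1 rose by 1.93 (SE 0.34, edgeR adjusted p = 0.0179), a call held in 4 of 7 fits. At 12d mice 1 to 3 had 73.8, 58.8 and 78.01 CPM and mouse 4 had 330 CPM, the highest of all 31 mice. The log2 fold change against vehicle, 1.81 (SE 0.72, edgeR adjusted p = 0.253), was 0.84 without it, and that against 6d moved from -0.61 to -1.57 (edgeR adjusted p from 0.442 to 0.000581). In the CFA groups Igf1 stayed at 26.7 to 54.4 CPM beside 38.7 to 48.3 CPM in their vehicle mice, with log2 fold changes of -0.12 (SE 0.21) at 1d and -0.02 (SE 0.27) at 5d. The 4 mice of 1C had 44.6, 62.2, 118 and 71.9 CPM (log2 fold change 0.93, SE 0.45, edgeR adjusted p = 0.443).

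Igfbp3, the main carrier of IGFs in plasma, had its highest values in 3 of the 4 mice of 10U 2d and was called higher at 6d. Col vehicle mice had 45.4, 61.9 and 33.8 CPM, mice 1 to 3 of 10U 2d had 306, 287 and 337 CPM and mouse 4 had 32.7 CPM. The 3 mice are far above and the fourth is below all vehicle mice. At 2d the log2 fold change was 2.32 (SE 0.70, edgeR adjusted p = 0.0761), and 2.69 without mouse 4 (edgeR adjusted p = 0.000721). At 6d, with 95.9, 84.9 and 71.8 CPM, Igfbp3 was 1.78-fold higher than in vehicle (log2 fold change 0.83, SE 0.23, edgeR adjusted p = 0.0338), a call held in 2 of 6 fits without 1 mouse. The step from 2d to 6d was not called (log2 fold change -1.49, SE 0.66, edgeR adjusted p = 0.199), and without mouse 4 of 2d it was -1.86 (edgeR adjusted p = 0.000363). At 12d Igfbp3 had 49.9, 49.4, 64.1 and 112 CPM, the last in mouse 4, and was not called against vehicle with that mouse or without it. Against 6d the log2 fold change was -0.27 (SE 0.29, edgeR adjusted p = 0.481), and -0.63 without mouse 4 (edgeR adjusted p = 0.0103). CFA groups ran from 25.1 to 67.0 CPM beside 33.8 to 45.4 CPM in vehicle.

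Igfbp5, a binding protein made by muscle and connective tissue, had the highest RPKM of the 10 in each of the 31 libraries. In Col vehicle it had 989, 594 and 934 CPM, at 10U 2d 2372, 2041, 1594 and 1109 CPM and at 6d 1663, 2805 and 2927 CPM. All treated mice of both days exceeded all vehicle mice, which held for 2 of 10 genes at 2d (Igfbp5 and Gdf15) against 13.4% of all genes. Log2 fold changes were 1.03 at 2d (SE 0.37, edgeR adjusted p = 0.103), or 1.20 without mouse 4 (edgeR adjusted p = 0.0178), and 1.52 at 6d (SE 0.37, edgeR adjusted p = 0.0237), the latter a call held in 3 of 6 fits without 1 mouse. At 12d mice 1 to 3, with 1022, 860 and 900 CPM, were near vehicle and mouse 4 had 2079 CPM. Against 6d the log2 fold change was -1.01 (SE 0.38, adjusted p of 0.0839 in edgeR and 0.0232 in DESeq2), and -1.41 without mouse 4 (edgeR adjusted p = 0.00277). At CFA 1d Igfbp5 had 1963, 1147 and 1280 CPM against 670, 868 and 911 CPM in vehicle, with no overlap (1 of 9 genes, against 3.05% of all in that direction) and a log2 fold change of 0.83 (SE 0.30, edgeR adjusted p = 0.924). At CFA 5d it was on the other side, with 444, 577 and 595 CPM and a log2 fold change of -0.56 (SE 0.24, edgeR adjusted p = 0.354).

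Hgf, the ligand of Met, was a rare message in vehicle and at 2d. Col vehicle mice had 0.0872, 0 and 1.12 CPM, those of 10U 2d 0.324, 0.513, 1.51 and 0.863 CPM and those of 6d 4.30, 4.31 and 3.11 CPM. At 6d all mice were above the vehicle and 2d mice. This was a log2 fold change of 3.15 against vehicle (SE 0.99, edgeR adjusted p = 0.0495), a call that held in 1 of 6 fits without 1 mouse, that without vehicle mouse 3, and 2.27 against 2d (SE 0.49, edgeR adjusted p = 0.0350), held in 2 of 7. At 12d Hgf was down to 0.289, 0.367, 0.377 and 1.90 CPM, the last in mouse 4, and had fallen by 2.36 from 6d (SE 0.62, edgeR adjusted p = 0.0313). That call held in 1 of 7 fits, the one without mouse 4. The 4 mice of 1C had 1.95, 1.10, 2.28 and 1.35 CPM, of which 1 lay below the highest vehicle mouse (log2 fold change 1.98, SE 1.01, edgeR adjusted p = 0.459).

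Fgf7 was not called in any comparison. Its 3 Col vehicle mice had 7.93, 3.99 and 14.6 CPM, the 4 mice of 10U 2d 17.5, 14.9, 19.9 and 9.61 CPM and those of 6d 9.07, 17.8 and 17.4 CPM. Vehicle mouse 3 overlapped both groups, and the log2 fold changes were 0.74 (SE 0.45, edgeR adjusted p = 0.280) and 0.69 (SE 0.48, edgeR adjusted p = 0.300). After CFA it had 11.9, 10.1 and 13.4 CPM at 1d and 6.51, 4.64 and 4.18 CPM at 5d beside 6.26, 6.34 and 11.3 CPM in vehicle.

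**Figure D4:**
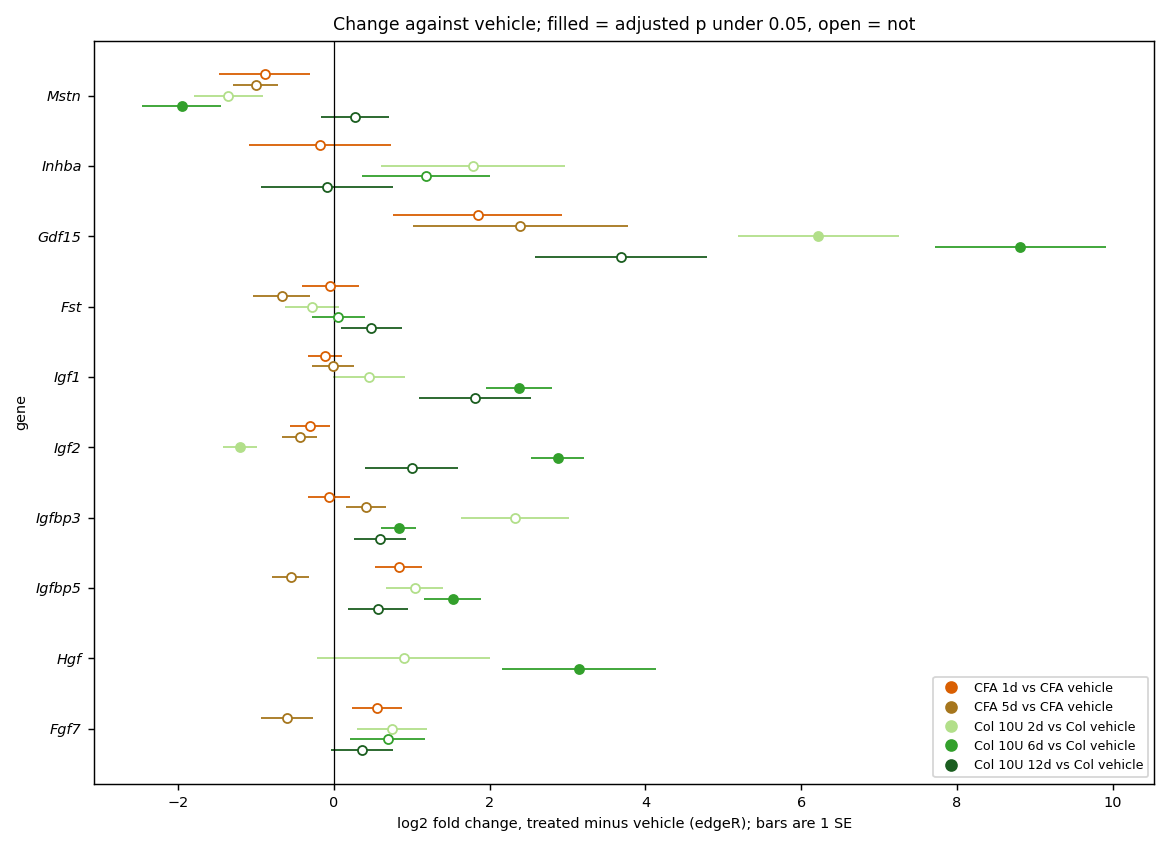
Log2 fold change of each gene against its own vehicle group (points, edgeR) with 1 SE as bars, for CFA 1d and 5d and 10U Col 2d, 6d and 12d, filled where the adjusted p was under 0.05. At 6d 7 points are filled and at 2d 2, none at 12d or after CFA, and the fitted values of Gdf15 against Col vehicle depend on a prior count because that group was at the floor of 3 counts.

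Within the 10U time course, 3 of 10 genes were called between 2d and 6d (Igf2, Igf1 and Hgf, all higher), where 8.73% of 14513 genes were called, 4.68% higher and 4.05% lower. Without mouse 4 of 2d, 5 were called, with Gdf15 higher and Igfbp3 lower in addition, and 28.8% of all genes were. Between 6d and 12d 4 of 10 were called (Mstn higher, Gdf15, Hgf and Inhba lower), where 26.4% of 14344 genes were called, 13.4% higher and 13% lower. Without mouse 4 of 12d 8 were called, the 4 added being Igf1, Igf2, Igfbp3 and Igfbp5, all lower, and 54.2% of all genes were. Without any 1 of the other 6 mice 0 or 1 were called, against 1.66 to 13.8% of all genes.

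Whether the effect at 10U 6d differed from that at CFA 5d was tested as an interaction, each day set against its own vehicle group. It differed for 3 of 10 genes, all with a higher log2 fold change after Col, where 11.3% of 14892 genes were called, 4.34% higher and 6.96% lower. The difference of log2 fold changes was 3.31 for Igf2 (SE 0.42, edgeR adjusted p = 0.00276), 2.39 for Igf1 (SE 0.54, edgeR adjusted p = 0.0210) and 2.08 for Igfbp5 (SE 0.41, edgeR adjusted p = 0.0128). For Igf2 and Igfbp5 the call held in all 12 fits without 1 mouse and for Igf1 in 11. Mstn did not reach the threshold (-0.96, SE 0.64, edgeR adjusted p = 0.341), nor did Gdf15 (6.40, SE 2.10, edgeR adjusted p = 0.0713), which DESeq2 called (adjusted p = 0.0307) as 1 of 4 genes, where it called 18.6% of all. For 10U 2d against CFA 1d the same test called 0 of 10, where 0.0946% of 14794 genes were called. There 3 genes had an unadjusted p under 0.05 (Igfbp3, Igf2 and Gdf15), against 6.83% of all genes. DESeq2 called 0, where it called 0.733% of all genes, and without mouse 4 of 2d Igfbp3 was called with a difference of 2.73 (edgeR adjusted p = 0.0114), where 0.708% of all genes were called.

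Partner genes of each pathway were followed at 10U 6d against vehicle, from lists chosen by function. Of all 14281 genes tested at 6d, 14% were called higher and 13.3% lower, the shares to set beside each list count of that day. Of 17 tested genes of the IGF pathway, 6 were higher and 3 lower, with a median log2 fold change of 0.08. The largest were Igfbp2, a further binding protein, from 5.25 ± 2.79 CPM in vehicle to 118 ± 87.4 at 6d (log2 fold change 4.48, SE 0.88, edgeR adjusted p = 0.0134), and H19, the maternally expressed noncoding neighbour of the paternally expressed Igf2, from 252 ± 49.4 to 4982 ± 1295 CPM (both SD, n = 3). H19 had a log2 fold change of 4.28 (SE 0.39, edgeR adjusted p = 0.0016). Its 3 mice of 6d had 4611, 6423 and 3913 CPM against 211 to 307 CPM in vehicle and 306 to 419 CPM at 2d, and at 12d mouse 4 had 1411 CPM and the others 262 to 585 CPM. Igf2bp2, which binds the Igf2 message, rose by 2.41 (SE 0.27, edgeR adjusted p = 0.00263). The receptor Igf1r was at 33.01 ± 7.73 CPM in vehicle and 34.3 ± 3.67 at 6d, a log2 fold change of 0.02 (SE 0.22, edgeR adjusted p = 0.944), and fell by 1.32 from the 86.9 ± 32.7 CPM of 2d (SE 0.28, edgeR adjusted p = 0.0328).

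In the myostatin and activin pathway 2 of 17 tested genes were higher and 5 lower at 6d, with a median log2 fold change of -0.33. Among all genes, 14% were higher and 13.3% lower. Fstl3, a relative of follistatin that binds the same ligands, fell from 3.66 ± 0.870 to 0.885 ± 0.0346 CPM (log2 fold change -2.06, SE 0.33, edgeR adjusted p = 0.00776). It was also lower at 12d (-2.64, SE 0.37, edgeR adjusted p = 0.0167), 1 of the 17 genes called there, against 1.23% of all genes. Acvr2b, a type II receptor of myostatin, fell by 1.61 (SE 0.35, edgeR adjusted p = 0.0171) and Smad3, which carries the signal to the nucleus, by 1.58 (SE 0.27, edgeR adjusted p = 0.00927). From 6d to 12d Acvr2b rose by 1.64 (SE 0.42, edgeR adjusted p = 0.0292) and Smad3 by 1.22 (SE 0.34, edgeR adjusted p = 0.0378). So the ligand Mstn, the receptor Acvr2b and Smad3 were lower at 6d and higher again at 12d, in the same direction as the myofiber markers given above. From 6d to 12d, 13.4% of all genes were called higher. The list did not move as one, as Fstl3 was still lower at 12d and 2 of the 17 genes were higher at 6d. For Mstn, Acvr2b and Smad3 the call from 6d to 12d held in 1 of 7 fits without 1 mouse, that without mouse 4. The Smad3 values of 6d and 12d overlapped. In the pathway's list 1 gene was called after CFA, at 5d, where 1.11% of all genes were called. This was Furin, which cleaves the myostatin precursor, with a log2 fold change of 0.95 (SE 0.14, edgeR adjusted p = 0.0397).

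Of 7 tested genes of the HGF pathway, 1 was higher and 2 lower at 6d, with a median of -0.66. Among all genes, 14% were higher and 13.3% lower. Met, the receptor, rose from 22.5 ± 3.05 to 66.9 ± 26.0 CPM (log2 fold change 1.55, SE 0.30, edgeR adjusted p = 0.0133), so ligand and receptor were both higher. From 6d to 12d Met fell by 1.60 (SE 0.27, edgeR adjusted p = 0.0122). St14, an epithelial protease that activates HGF, had a log2 fold change of -3.70 at 6d (SE 1.15, edgeR adjusted p = 0.0482). Its groups overlapped, with 14.2 ± 16.7 CPM in vehicle and 1.08 ± 0.305 CPM at 6d (both SD). The summed level of 4 salivary gland markers was 0.207 to 0.687 CPM in the 3 mice of 6d against 1.18, 876 and 352 CPM in vehicle. At CFA 5d Spint1, an epithelial inhibitor of such proteases, rose by 2.73 (SE 0.36, edgeR adjusted p = 0.0352), with salivary markers at 975 to 1007 CPM against 0.565, 1.003 and 460 CPM in vehicle. The part of gland tissue in these epithelial genes was not tested. At 10U 2d 1 of the 7 was called, against 2.22% of all genes. This was Gab1, an adaptor of Met, lower with a log2 fold change of -0.99 (SE 0.16, edgeR adjusted p = 0.0406), and at 6d it was lower as well (-0.66, SE 0.15, edgeR adjusted p = 0.0201).

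The FGF pathway had 2 of 10 tested genes higher and 4 lower at 6d, with a median of -1.30. Among all genes, 14% were higher and 13.3% lower. Fgf21, a stress-induced hormone, had at most 1 count in each vehicle library and 4.25, 3.87 and 2.45 CPM at 6d, at least 22.8-fold higher (edgeR adjusted p = 0.00233). Fgf21 too passed the low-count filter only through the mice of 6d. Fgfr2, the receptor of Fgf7, had a log2 fold change of -3.12 (SE 0.46, edgeR adjusted p = 0.00564), beside the salivary gland values given for St14, and Fgf6, a muscle-restricted FGF, one of -1.86 (SE 0.51, edgeR adjusted p = 0.0332). Of 10 tested genes listed with Gdf15 as stress response, 3 were higher and 1 lower at 6d, with a median of -0.28, beside the same shares of all genes. Cdkn1a, the cell cycle inhibitor p21, went from 80.0 ± 23.2 to 1030 ± 627 CPM (log2 fold change 3.66, SE 0.54, edgeR adjusted p = 0.00564) and Atf3 rose by 1.28 (SE 0.35, edgeR adjusted p = 0.0338), whereas Chac1, a target of the integrated stress response, fell by 1.73 (SE 0.46, edgeR adjusted p = 0.0304). At 2d 1 of the 10 was called, Atf3, higher by 3.52 (SE 0.71, edgeR adjusted p = 0.0497), where 2.22% of all genes were called. From 2d to 6d 4 of the 10 were lower and none higher, where 4.05% of all genes were lower and 4.68% higher. Trib3 fell by 3.72 (SE 0.80, edgeR adjusted p = 0.0343) and Chac1 by 2.71 (SE 0.43, edgeR adjusted p = 0.0138). Gdf15 itself had a log2 fold change of 2.57 (SE 0.79, edgeR adjusted p = 0.0837), and 2.22 without mouse 4 of 2d (edgeR adjusted p = 0.0380).

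Other steps of the time course gave further partner genes. From 2d to 6d H19 rose by 3.71 (SE 0.33, edgeR adjusted p = 0.00211) and Igfbp2 by 5.15 (SE 0.98, edgeR adjusted p = 0.0233). They were among 2 higher and 3 lower of 17 IGF pathway genes, against 4.68% and 4.05% of all genes. Fgf21 rose by 2.999 (SE 0.53, edgeR adjusted p = 0.0182) over the same step. Smad7, an inhibitor of the pathway, and Inhbb, a second activin subunit, had log2 fold changes of -1.72 and -2.78 (edgeR adjusted p = 0.0170 and 0.0464). From 6d to 12d H19 had a log2 fold change of -2.93, Igfbp2 of -4.62, Cdkn1a of -2.68 and Fgf21 of -5.16, all called lower (edgeR adjusted p = 0.0177, 0.0142, 0.0199 and 0.00954). Fgfr2 rose over that step by 2.40 (SE 0.43, edgeR adjusted p = 0.0141). In the interaction of 10U 6d with CFA 5d the differences were 4.29 for H19 (SE 0.38, edgeR adjusted p = 0.000715), 3.93 for Cdkn1a (SE 0.60, edgeR adjusted p = 0.00477), 1.49 for Met (SE 0.37, edgeR adjusted p = 0.0276) and -2.21 for Fstl3 (SE 0.38, edgeR adjusted p = 0.00827). The naming rule gave 11 calls there. The others were Fgfr4 (2.09) and Tgfbr1 (1.59) on the higher side. On the lower side were St14 (-7.27), Spint2 (-5.83), Asns (-5.14), Fgfr2 (-4.655) and Stc1 (-2.92). Of all genes 4.34% were called higher and 6.96% lower. In the 5 lists 0 genes were called at CFA 1d, in 1C, in RPC and between the vehicle groups. Of all genes 0% were called in the first 3 of these and 0.0426% in the last, so the 0 tells nothing particular to the lists.

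The calls of partner genes were also read without each mouse in turn. Of the 15 calls named at 10U 6d, 7 held in all 6 fits, those of H19, Igfbp2, Igf2bp2, Fstl3, Smad3, Cdkn1a and Fgfr2. That of Fgf21 held in the 3 fits in which it passed the low-count filter. The call of St14 at 6d held in 1 of 6 fits, that of Atf3 in 2 and those of Acvr2b, Fgf6 and Chac1 in 3. The calls of Furin and Spint1 at CFA 5d held in 1 of 6 each, and that of Fstl3 at 12d in 3 of 7. Without mouse 4 of 2d or 12d, every call that the naming rule gave in a comparison with these groups was kept, 2 at 2d, 1 at 12d, 11 between 2d and 6d and 10 between 6d and 12d. In those fits 36.3%, 1.16%, 28.8% and 54.2% of all genes were called, in the same order. With all mice the shares were 2.22%, 1.23%, 8.73% and 26.4%. Over all mice left out in turn, 2 of those 11 (H19 and Fgfr2) and 1 of those 10 (Trp53, the gene of p53, log2 fold change -0.79) held in all 7 fits. At 2d the receptors Igf1r, Met and Acvr2b were called in 1 of 7 fits, that without mouse 4, with log2 fold changes of 1.499, 0.90 and -1.44 (edgeR adjusted p = 0.00843, 0.00454 and 0.0274) in place of 1.35, 0.80 and -1.03 with it. That fit called 36.3% of all genes, against 2.22% with all mice. In the fits without 1 mouse no named call changed sign.

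**Figure D5:**
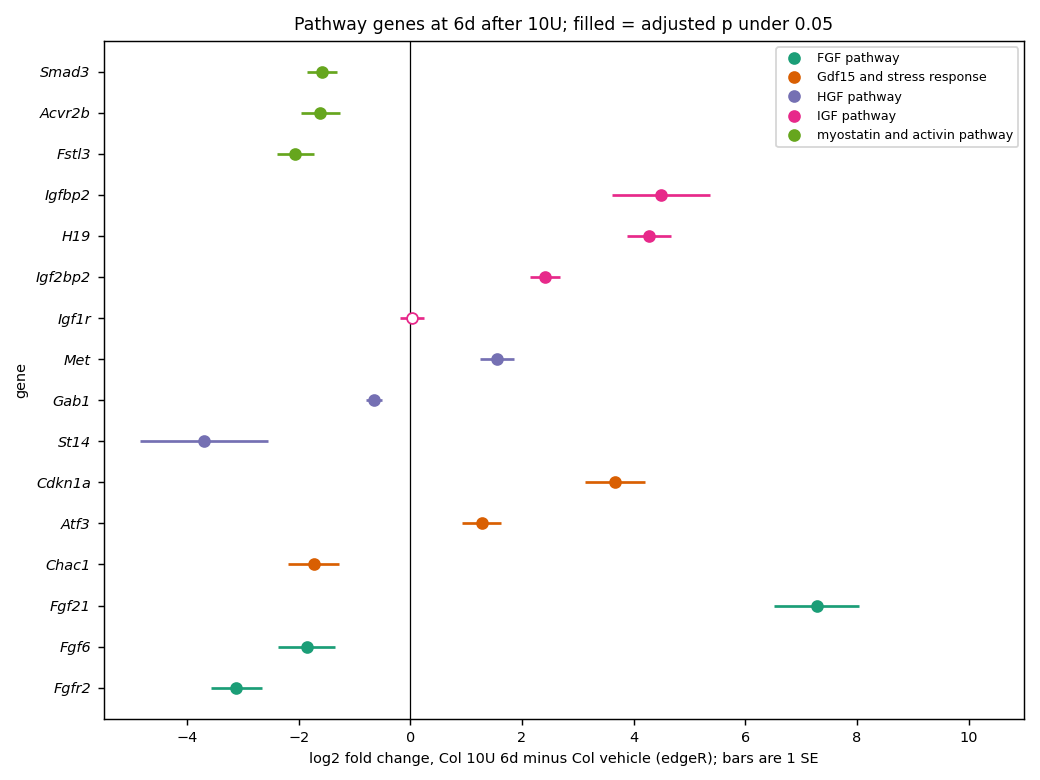
Log2 fold change (points, edgeR) with 1 SE of the named partner genes at 10U 6d against Col vehicle, coloured by pathway list, filled where the adjusted p was under 0.05. Igfbp2, H19, Igf2bp2, Cdkn1a and Met lie to the right of 0, Fstl3, Acvr2b, Smad3, Fgfr2, Fgf6, St14, Gab1 and Chac1 to the left, and Igf1r near it at 0.02, and the fitted value of Fgf21 depends on a prior count because its vehicle group was under the floor of 3 counts.

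Calls among cell type markers at 6d went in both directions, where 14% of all tested genes were called higher and 13.3% lower. The 6 markers of satellite cells and regenerating fibers summed to 2519 to 4452 CPM at 6d against 324 to 935 CPM in vehicle, 337 to 735 CPM at 2d and 449 to 1733 CPM at 12d, the last in mouse 4, with 3 of 6 genes called higher at 6d. The 5 fibroblast markers summed to 8233 to 13616 CPM against 1192 to 5812 CPM, with 1 of 5 called, and the 5 macrophage markers to 273 to 462 CPM against 40.0 to 109 CPM, with 4 of 5 called higher. No list had a marker at 0 in all mice of a group. The 3 neutrophil markers summed to 4.21 to 8.79 CPM at 6d against 6.05 to 663 CPM, with 2 of 3 called lower, and the 4 Schwann cell markers to 35.8 to 163 CPM against 255 to 955 CPM, with 3 of 4 called lower. The part of the cell mixture in the changes of the 10 genes was not tested.

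Likeness was read as Pearson's r of log2 CPM over the 31 libraries, among 13510 genes with a mean of at least 1 CPM. As the libraries share treatments, depths and cell mixtures, the values describe patterns and carry no p. The pattern of Igf2 was nearest to Megf10 (r = 0.957), Ltbp1 (0.940) and Myl6b (0.933), that of Igf1 to Bnc2 (0.916), Plagl1 (0.898) and Col8a1 (0.877). Mstn was nearest to Txlnb (0.896), Tppp (0.891) and Slc25a42 (0.887). For Inhba the nearest were Dlgap5 (0.918), Kif23 (0.915) and Smc4 (0.908), and for Gdf15 Abi1 (0.893), Morc4 (0.881) and Runx1 (0.877). Igfbp5 was nearest to Ttc9 (0.904), Gadd45a (0.896) and Cdkn1a (0.891), and Igfbp3 to Plk2 (0.909), Ostf1 (0.886) and Apln (0.885). Hgf was nearest to Plxnc1 (0.848), Dock10 (0.848) and Man1a2 (0.843) and Fgf7 to Qk (0.881), Cep170 (0.866) and AI987944 (0.864), while Fst had no gene above 0.718 (Spon2).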

How the data were processed

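RNA of MM from 31 male mice, 1 library each, was sequenced as single reads of 50 bases from stranded poly(A) libraries. Per the labels, the authors aligned reads to mm9 with TopHat2 and counted them with HTSeq, and deposited the raw counts of every library as a table of its own, a whole number of reads per gene symbol. The annotation and the strand setting of the counting are not given in the sources used here. Reads with several alignments, 34.6 to 47.9% of those listed, were in closing lines outside the genes and were left out. No 2 libraries among 465 pairs held identical values.

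From these counts, CPM scaled by TMM over all libraries and RPKM with exon lengths of GENCODE vM1 were computed. Groups were compared in R 4.3.3 with edgeR 4.0.16 (quasi-likelihood test, TMM, group as the only factor, libraries of the comparison only, genes that reached 10 counts in 3 or more libraries, Benjamini-Hochberg adjustment over all tested genes). The SE is the log2 fold change divided by the root of F. A group at 3 counts or fewer in each library was set to the floor of 3 counts per library, and folds against it are lower bounds. The floor covers counting error only. With 3 or 4 mice a group, p-values measure the spread between these mice. The alternatives were DESeq2 1.42.0, its size factors in edgeR, no filter, a fold over 2 with an RPKM over 1, 1 fit of all libraries, pooled vehicle groups, the replicate number as a block and each mouse left out. Scripts were tested on simulated data.

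Replicate numbers come from the labels. Mice with the same number deviated together in all 3 pairs for CFA 1d against CFA vehicle (r of 0.190, 0.236 and 0.606) and for the 2 vehicle groups (0.179, 0.113 and 0.683), where the block called 0 of these genes as well, and not in all pairs elsewhere. The members, the pathway and marker lists and the tests were chosen with earlier results of these data known. Partner genes named are up to 3 called genes of each list with the largest change at 10U 6d, from other comparisons all called genes of a list where they were 5 or fewer and otherwise up to 2 a list (given here in part), and the receptors Igf1r, Acvr2b, Met and Fgfr2. The nearest 3 genes by r were named for each member. A gene of the HGF pathway list is not reported here and was left out of that list's counts.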

Additional observations from a re-analysis of the deposited data

Results flagged for a closer look

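Among 40 sets of 4 mice (10 genes in 4 groups), 5 held a mouse whose gap to the others passed Dixon's limit at the 95% level, where chance gives about 1 in 20. Mouse 4 of 10U 12d was the highest for Igf1 with 330 CPM, for Igfbp5 with 2079 CPM and for Hgf with 1.90 CPM. Mouse 4 of 10U 2d was the lowest for Igfbp3 with 32.7 CPM and the highest for Fst with 14.5 CPM. The effects of 10U 6d and CFA 5d, tested as an interaction in edgeR, differed by 2.39 for Igf1, 3.31 for Igf2 and 2.08 for Igfbp5 on the log2 scale, and the difference in day, 6d against 5d, and in the share of ambiguous reads of the 10U libraries cannot be told apart from that in treatment.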

How the results depend on the processing

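No log2 fold change of the 10 genes that was called changed sign under any alternative run. The counts of called genes moved as follows. The share of all tested genes that was called moved with them and is given in parentheses. DESeq2 called 1 gene at CFA 5d (6.44%), 5 at 10U 2d (23.2%), 1 at 10U 12d (6.39%), 4 between 2d and 6d (18.7%, with Gdf15 added), 6 between 6d and 12d (37.6%, with Igf2 and Igfbp5 added) and 4 in the interaction of 10U 6d with CFA 5d (18.6%, with Gdf15 added), where edgeR called 0, 2, 0, 3, 4 and 3. A single fit of all libraries called 5 at 10U 2d (31.8%) and 1 at 12d (Igf1, 5.01%), and pooled vehicle groups called 5 at 10U 2d (34.4%). The replicate number as a block is not a pairing by animal, and since vehicle, CFA and 6d have no mouse 4 it also takes mouse 4 of 2d or 12d out of the contrast. With it 5 genes were called at 10U 2d (31.3%), 8 between 6d and 12d (49.2%, against 4) and 1 in the interaction of 10U 2d with CFA 1d (1.1%, against 0), the same genes as without mouse 4 and no block. At 10U 6d, where no mouse leaves, the block called 3 (Gdf15, Igf1 and Igf2, 10.3%, against 7), and the cause was not tested. The block moved no other count by over 1.5 times. Without 1 mouse in turn, the counts ran from 0 to 1 at CFA 5d (0 to 15.6%), 0 to 5 at 10U 2d (0.0843 to 36.3%), 3 to 8 at 10U 6d (5.83 to 41.5%), 1 to 5 between 2d and 6d (0.881 to 28.8%), 0 to 8 between 6d and 12d (1.66 to 54.2%), 0 to 1 in the interaction of 10U 2d with CFA 1d (0.0271 to 0.708%) and 2 to 5 in that of 10U 6d with CFA 5d (3.84 to 18%). Of 750 values of single genes under the other alternatives, 711 kept their side of the threshold, 28 passed it and 11 fell short of it, and of 846 values without 1 mouse these numbers were 778, 15 and 53. Depth limits Hgf, Gdf15 and Inhba, whose vehicle libraries held few counts.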
